A study of Mus musculus with 12 samples.

Results

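The 38 genes described here encode the core machinery of macroautophagy and a set of lysosomal proteins. They were taken by symbol from a list whose rule uses no measured value, although the list was chosen with earlier results of these data known. Each symbol matched 1 gene among the 54752 genes counted in the cerebellar cortex of 12 mice. All mice were wild-type (WT) males, F1 hybrids of C57BL6J and FVB, and 4 were kept on each of 3 diets. Mice fed ad libitum (AL) had free access to food. Mice on dietary restriction (DR) received a reduced portion of the same synthetic pellets once a day, just before the dark period. The third group is labelled as a ketogenic diet (KD), whose composition and schedule are not given in the sources used here. The labels give a time of 12 weeks for all libraries, which for AL and DR was the age at death.

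The tissue was cerebellar cortex without the cerebellar nuclei, each library came from 1 mouse, and AL and DR samples were picked for RNA quality. AL and DR mice were killed at the start of the dark period, and DR mice did not get the meal of that evening, so the restricted diet and the time since the last meal cannot be told apart. Between 31712084 and 40798644 reads were counted per library, with no difference in these totals between diets beyond their spread (two-sided exact permutation test, n = 4 against 4, p = 0.6 for DR and AL, 0.8 for KD and AL, and 0.257 for KD and DR). Markers of all cell types tested were detected, but at very different levels. For 6 Purkinje cell genes the summed levels were 5612 to 7142 CPM (counts scaled for library size). For 5 granule cell genes they were 4488 to 4916 CPM, and for 3 choroid plexus genes 0.942 to 9.46 CPM.

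In macroautophagy a cell wraps part of its cytoplasm in a double membrane, the autophagosome, which then fuses with a lysosome whose hydrolases break the content down. Low nutrient supply lowers mTORC1 activity, which releases the ULK1 kinase complex to start the process and lets the transcription factors TFEB and TFE3 enter the nucleus, where they bind the CLEAR motif near lysosomal and autophagy genes. Much of this control acts on proteins, through phosphorylation, cleavage and coupling to lipid, and is not visible in messenger RNA. Purkinje cells, the output neurons of the cerebellar cortex, degenerate in mice whose neurons lack Atg5 or Atg7. By role the genes comprised 5 of the initiation complex, 4 of the class III PI3-kinase complex, 5 for lipid supply and phosphoinositide binding, 7 of the conjugation systems, 5 encoding ATG8 proteins, 5 cargo receptors, 2 transcription factors and 5 lysosomal proteins.

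None of the 38 genes passed between DR and AL, and none between KD and AL, in edgeR's quasi-likelihood test on all genes that passed the filter, with p adjusted by Benjamini and Hochberg's method. Between KD and DR 1 gene passed, Map1lc3b, which was lower on KD. All 38 passed the filter on low counts, and a gene is called here when its adjusted p is under 0.05. The same test called 3.06% of 19052 genes between DR and AL, 0% of 19036 genes between KD and AL, and 4.94% of 19087 genes between KD and DR. Before adjustment, a p under 0.05 was seen in 6 of the 38 (15.8%) for DR against AL and in 0 for KD against AL, against 18.0% and 4.87% of all genes, and DESeq2 called 0 of the 38 in both, against 5.31% and 0.0525% of all genes. Among genes of at least 10 CPM, which 37 of the 38 were, the shares called were 4.32% of 10109, 0% of 10058 and 6.80% of 10094.

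Promoter sequences are shown for Map1lc3b, the called gene, for Atg14 and Atg3, which were among the genes with the lowest p and hold the CLEAR core, and for Lamp1, a lysosomal gene with the same core. Atg14 and Atg3 were thus picked partly for the core. The windows of Map1lc3b, Atg13, Tfeb and Bnip3, the other genes of the list with an unadjusted p under 0.05, do not hold it. They are RefSeq windows of the GRCm38.p6 build, written 5′ to 3′ on the strand of the gene from 250 bases before to 50 bases after its start. Capitals mark the CLEAR core TCACGTG or its reverse complement CACGTGA, which overlap where the run reads TCACGTGA.
Map1lc3b, chr8:121590188-121590487, + strand: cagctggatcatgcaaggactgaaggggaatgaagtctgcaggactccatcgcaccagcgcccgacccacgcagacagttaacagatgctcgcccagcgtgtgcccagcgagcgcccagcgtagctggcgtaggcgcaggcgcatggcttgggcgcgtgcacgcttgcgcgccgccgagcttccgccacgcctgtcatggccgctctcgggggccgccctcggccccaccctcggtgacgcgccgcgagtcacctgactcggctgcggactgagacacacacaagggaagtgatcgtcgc
Atg14, chr14:47568385-47568684, - strand: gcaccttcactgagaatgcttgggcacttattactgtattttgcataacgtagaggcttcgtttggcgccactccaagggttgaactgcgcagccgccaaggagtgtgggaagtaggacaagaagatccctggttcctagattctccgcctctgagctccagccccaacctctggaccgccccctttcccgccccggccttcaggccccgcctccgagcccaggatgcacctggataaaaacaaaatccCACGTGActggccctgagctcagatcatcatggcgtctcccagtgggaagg
Atg3, chr16:45158579-45158878, + strand: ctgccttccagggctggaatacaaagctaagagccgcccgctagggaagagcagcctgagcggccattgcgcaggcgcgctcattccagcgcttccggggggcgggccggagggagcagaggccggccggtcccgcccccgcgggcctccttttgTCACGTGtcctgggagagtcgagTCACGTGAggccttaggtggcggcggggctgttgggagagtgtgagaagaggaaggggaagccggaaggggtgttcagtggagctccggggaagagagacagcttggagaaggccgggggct
Lamp1, chr8:13158911-13159210, + strand: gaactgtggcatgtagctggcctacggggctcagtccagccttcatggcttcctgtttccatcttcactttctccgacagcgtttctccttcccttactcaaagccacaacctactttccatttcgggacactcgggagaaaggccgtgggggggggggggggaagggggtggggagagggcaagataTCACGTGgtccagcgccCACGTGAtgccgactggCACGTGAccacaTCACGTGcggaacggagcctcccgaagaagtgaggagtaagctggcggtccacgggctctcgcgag
RefSeq windows were found for 30 of the 38 genes, with 34 windows in all because Nbr1, Tfe3 and Tfeb have more than one. The CLEAR core stood in 5 of the 34 windows (14.7%), those of Atg14, Atg3, Atg7, Ctsd and Lamp1, against 1237 of all 32851 windows (3.77%). The FoxO motif GTAAACA or its reverse complement TGTTTAC stood in 0 of the 34 windows, against 3.65% of all windows. These matches describe letters in a window and were not tested for binding. No window was found for Rb1cc1, Becn1, Pik3c3, Atg12, Atg16l1, Map1lc3a, Bnip3l and Ctsb.

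Per kilobase of exon, as CPM per kilobase (RPKM) averaged over the 12 libraries, the highest levels were those of the ATG8 genes Gabarapl1 (107 RPKM) and Gabarapl2 (87.7 RPKM), followed by the lysosomal protease Ctsb (84.3 RPKM), the lysosomal membrane protein Lamp1 (58.7 RPKM) and the cargo receptor Sqstm1 (55.1 RPKM). The lowest were Atg10 (2.74 RPKM), Tfeb (3.58 RPKM), Atg7 (3.81 RPKM) and Pik3r4 (4.12 RPKM). Within a gene the highest of the 12 libraries was 1.07 times (Nbr1 and Sqstm1) to 1.64 times (Atg10) the lowest.

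**Figure D1:**
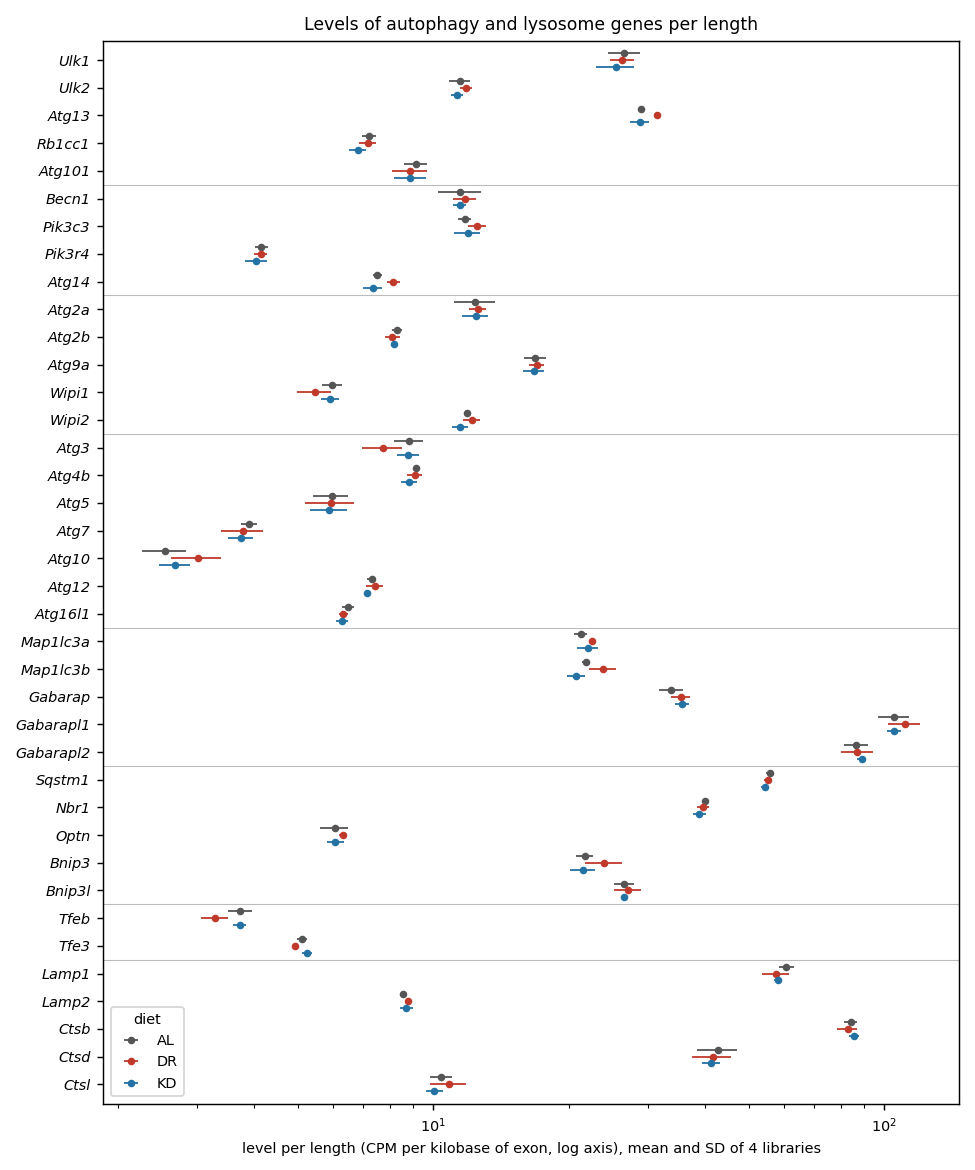
Level of each of the 38 genes per length of exon (CPM per kilobase, log axis), with a point for the mean and a line for the SD of 4 libraries per diet and grey lines between roles. Gabarapl1 lies at the top with 107 RPKM over all libraries and Atg10 at the bottom with 2.74 RPKM, and the 3 diets of a gene lie close together.

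The initiation complex joins the kinases ULK1 and ULK2 to ATG13, FIP200 (Rb1cc1) and ATG101. Atg13 stood at 126, 127, 128 and 125 CPM on AL, 139, 135, 136 and 138 CPM on DR and 123, 134, 120.0 and 124 CPM on KD. All 4 DR libraries lay above all AL and all KD libraries. The fitted log2 fold change of Atg13, a subunit that mTORC1 phosphorylates, was 0.12 for DR against AL (95% interval 0.03 to 0.20, adjusted p = 0.121) and -0.13 for KD against DR (-0.22 to -0.04, adjusted p = 0.102), and neither passed. Ulk1 stood at 166, 167, 193 and 163 CPM on AL, 160.3, 163, 183 and 174 CPM on DR and 157, 188, 162 and 152 CPM on KD. The diets overlapped, with AL replicate 3, KD replicate 2 and DR replicate 3 highest. Ulk2 stood at 66.9, 66.0, 73.7 and 67.0 CPM on AL, 72.8, 68.6, 72.5 and 69.2 CPM on DR and 67.1, 64.9, 68.5 and 69.5 CPM on KD. Here too the diets overlapped, and AL replicate 3 was the highest of the 12 libraries. For Rb1cc1 and Atg101 the libraries lay between 94.8 and 109 CPM and between 12.7 and 15.6 CPM. In KD against DR the fitted log2 fold change was below 0 for all 5 genes (median -0.07), of which Atg101, at -0.0019 (95% interval -0.17 to 0.17), turned positive with RLE scaling.

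The class III PI3-kinase complex makes the phosphatidylinositol 3-phosphate that marks the growing membrane. Pik3c3 stood at 54.7, 51.2, 51.2 and 52.3 CPM on AL, 54.9, 52.9, 57.8 and 58.2 CPM on DR and 51.5, 56.9, 49.3 and 55.1 CPM on KD. This catalytic subunit overlapped between all diets. Becn1 stood at 88.4, 89.2, 71.8 and 75.4 CPM on AL, 86.1, 86.9, 76.5 and 82.5 CPM on DR and 81.3, 77.7, 80.2 and 84.0 CPM on KD. AL replicates 1 and 2 held the highest and AL replicates 3 and 4 the lowest Becn1 levels, and the other diets lay between. Becn1 counts are uncertain, since 43.9% of its exon bases are shared with Cntd1 on the opposite strand. Atg14 stood at 31.4, 32.8, 33.2 and 32.5 CPM on AL, 34.0, 36.6, 35.8 and 34.7 CPM on DR and 33.0, 32.4, 29.6 and 32.1 CPM on KD. Every DR library of Atg14, which directs the complex to autophagy, lay above every AL and every KD library. Its log2 fold change was 0.12 for DR against AL (0.01 to 0.22, adjusted p = 0.221) and -0.15 for KD against DR (-0.26 to -0.04, adjusted p = 0.121). Pik3r4, the regulatory kinase subunit, ranged from 36.2 to 41.6 CPM with all diets overlapping.

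Membrane lipid reaches the forming autophagosome through the scramblase ATG9A and the transfer proteins ATG2A and ATG2B, and WIPI1 and WIPI2 bind the phosphoinositide there. Atg9a stood at 93.6, 94.9, 105 and 94.3 CPM on AL, 96.6, 93.2, 98.8 and 102 CPM on DR and 96.1, 104, 93.5 and 91.7 CPM on KD. Atg2a stood at 94.0, 92.4, 109 and 85.7 CPM on AL, 90.5, 99.5, 99.7 and 96.5 CPM on DR and 93.1, 105, 92.8 and 91.2 CPM on KD. In both, AL replicate 3 was the highest of the 12 libraries and the diets overlapped, and 32.6% of the exon bases of Atg9a are shared with Ankzf1 and Gm29253. Wipi2 stood at 124, 126, 127 and 124 CPM on AL, 129, 122, 135 and 128 CPM on DR and 116, 127, 119 and 122 CPM on KD. The AL libraries of Wipi2 lay inside the DR range. Atg2b ranged from 103 to 115 CPM and Wipi1 from 21.4 to 28.3 CPM, and the latter had the largest fitted difference of this role, -0.13 for DR against AL (-0.27 to 0.02, adjusted p = 0.357).

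Of the 7 conjugation genes, which attach ATG12 to ATG5 and the ATG8 proteins to lipid, Atg4b encodes the protease that processes ATG8 proteins. Atg4b stood at 74.5, 76.7, 75.8 and 76.5 CPM on AL, 77.3, 72.5, 72.9 and 78.2 CPM on DR and 70.9, 77.2, 70.9 and 73.1 CPM on KD. Atg12 stood at 55.9, 57.8, 54.8 and 57.0 CPM on AL, 60.2, 58.0, 54.2 and 56.5 CPM on DR and 55.8, 54.6, 54.2 and 55.9 CPM on KD. Neither separated the diets in any pair. Atg3 stood at 29.2, 27.0, 25.4 and 30.0 CPM on AL, 21.2, 26.2, 26.4 and 23.8 CPM on DR and 26.5, 26.5, 29.6 and 28.4 CPM on KD. All 4 DR libraries of Atg3, the enzyme that passes ATG8 proteins to lipid, lay below all KD libraries, the nearest being 26.4 and 26.5 CPM, while AL replicate 3 reached into the DR range. The log2 fold change of Atg3 was -0.19 for DR against AL (-0.36 to -0.03, adjusted p = 0.202), the lowest of the 38 genes, and 0.19 for KD against DR (0.04 to 0.34, adjusted p = 0.159). At the other end Atg10, with 3.65 to 5.98 CPM the least abundant of the 38 genes, had 0.24 for DR against AL with the widest interval (-0.02 to 0.51, adjusted p = 0.321). Atg5, Atg7 and Atg16l1 ranged from 12.3 to 16.5, from 22.3 to 28.6 and from 57.7 to 64.3 CPM, with fitted log2 fold changes from -0.06 to -0.01 in the 3 comparisons.

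ATG8 proteins are the small ubiquitin-like proteins that coat the autophagosome, and LC3B, the product of Map1lc3b, is the usual marker of these vesicles. Map1lc3b stood at 161, 168, 166 and 161 CPM on AL, 197, 168, 177 and 174 CPM on DR and 156, 164, 147 and 158 CPM on KD. On KD every library lay below every DR library, and DR replicate 1 was the highest of the 12, while DR replicate 2 lay inside the AL range. Map1lc3b (chr8:121590361-121598760, plus strand, GRCm38.p6) had means of 156 ± 7.09 CPM on KD and 179 ± 12.6 CPM on DR (SD, n = 4 each), and its log2 fold change was -0.20 (95% interval -0.31 to -0.09, adjusted p = 0.038). The call was lost in 6 of the 8 fits that left out 1 library, those without DR replicates 1, 3 and 4 or KD replicates 1, 3 and 4 (adjusted p from 0.0513 to 0.133), and without DR replicate 1 the log2 fold change was -0.15. It was kept without DR replicate 2 (adjusted p = 0.0241) and without KD replicate 2 (0.0408), and in DESeq2 (0.0108). Against AL the log2 fold change of Map1lc3b was 0.12 on DR (adjusted p = 0.202) and -0.07 on KD (adjusted p = 0.994), neither past the test.

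Gabarapl1 stood at 219.7, 231, 193 and 203 CPM on AL, 246, 228, 201 and 219 CPM on DR and 214, 215, 201 and 217 CPM on KD. Gabarapl2 stood at 209.7, 209.9, 183 and 203 CPM on AL, 225, 198, 185 and 203 CPM on DR and 207, 204, 205 and 214 CPM on KD. Gabarap stood at 61.9, 62.4, 57.5 and 66.7 CPM on AL, 69.1, 62.6, 62.8 and 66.7 CPM on DR and 64.1, 66.8, 63.3 and 68.3 CPM on KD. The diets overlapped in all 3 genes of the GABARAP subfamily, and 28.3% of the exon bases of Gabarapl1 are shared with a gene on the opposite strand. For Map1lc3a the 4 DR libraries (26.2 to 27.1 CPM) lay above the 4 AL libraries (23.9 to 25.5 CPM) and inside the KD range (24.6 to 27.9 CPM), with 0.09 on the log2 scale (adjusted p = 0.427). All 5 ATG8 genes had a fitted log2 fold change above 0 for DR against AL, with a median of 0.08 and under each scaling tried, and 0 of the 5 passed. DR replicate 1 was the highest DR library in all 5, and the highest of the 12 libraries in all but Map1lc3a. The smallest of the 5 fold changes, that of Gabarapl2, was 0.0087 (-0.12 to 0.14). How far the shared sign rests on DR replicate 1 was not tested. For KD against DR 2 of the 5 were above 0 and 3 below.

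Cargo receptors tie what is to be degraded to ATG8 proteins. Sqstm1 stood at 186, 192, 184 and 186 CPM on AL, 185, 187, 181 and 188 CPM on DR and 179, 181, 183 and 188 CPM on KD. Nbr1 stood at 274, 272, 281 and 274 CPM on AL, 269, 263, 280.1 and 278 CPM on DR and 262, 280.0, 263 and 265 CPM on KD. Bnip3l stood at 98.8, 102, 98.2 and 109.6 CPM on AL, 115, 102, 101 and 99.2 CPM on DR and 102, 103, 103 and 101 CPM on KD. Sqstm1 (p62) and Nbr1, which bind ubiquitinated cargo, were the steadiest of the 38 genes over the 12 libraries, and Bnip3l, a mitophagy receptor, stood out in DR replicate 1. Of the exon bases of Sqstm1 17.3% are shared with Mrnip on the opposite strand. Bnip3, the related mitophagy receptor, falls outside the rule for genes shown by library and was added after its values were seen. Bnip3 stood at 48.8, 52.2, 47.0 and 48.3 CPM on AL, 59.5, 55.0, 55.3 and 47.2 CPM on DR and 52.2, 48.2, 49.2 and 44.6 CPM on KD. Of its DR libraries 3 lay above all AL and KD libraries and DR replicate 4 lay below most of them, and 22.3% of its exon bases are shared with Gm45507 on the opposite strand. Its log2 fold change was 0.14 for DR against AL (0.01 to 0.28, adjusted p = 0.243) and -0.16 for KD against DR (-0.30 to -0.02, adjusted p = 0.186), and without DR replicate 4 the latter passed at -0.22 (adjusted p = 0.0399). Optn ranged from 20.5 to 24.2 CPM.

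The transcription factors TFEB and TFE3 drive lysosomal and autophagy genes. Tfeb stood at 22.6, 21.3, 21.3 and 19.5 CPM on AL, 16.6, 19.3, 19.1 and 19.2 CPM on DR and 20.4, 21.9, 20.7 and 21.6 CPM on KD. All 4 DR libraries lay below all AL and all KD libraries, with DR replicate 1 the lowest. Tfeb had a log2 fold change of -0.19 for DR against AL (-0.34 to -0.04, adjusted p = 0.161) and of 0.19 for KD against DR (0.05 to 0.32, adjusted p = 0.115). Tfe3 stood at 46.6, 48.9, 46.4 and 47.5 CPM on AL, 44.9, 46.1, 45.3 and 46.3 CPM on DR and 47.2, 50.1, 48.8 and 48.2 CPM on KD. These DR libraries, too, lay below all others, the nearest AL library at 46.4 against 46.3 CPM. The log2 fold change of Tfe3 was -0.05 for DR against AL (-0.15 to 0.04, adjusted p = 0.579) and 0.09 for KD against DR (-0.0012 to 0.18, adjusted p = 0.275), so neither factor passed in either comparison.

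The 5 lysosomal genes encode the membrane proteins LAMP1 and LAMP2 and the proteases cathepsin B, D and L. Ctsb stood at 527, 519.5, 493 and 498 CPM on AL, 524, 489, 472 and 522 CPM on DR and 526, 530.1, 501 and 519.6 CPM on KD. Lamp1 stood at 166, 168, 157 and 157 CPM on AL, 169, 148, 146 and 152 CPM on DR and 158, 150.4, 156 and 157 CPM on KD. Ctsd stood at 109, 110.1, 92.3 and 90.9 CPM on AL, 111, 93.9, 87.7 and 99.2 CPM on DR and 99.5, 98.8, 90.3 and 99.7 CPM on KD. The diets overlapped in all 3 genes, and for Ctsd AL replicates 1 and 2 and DR replicate 1 lay above the remaining libraries. Exon bases are shared with another gene for 34.4% of Ctsd, 26.8% of Ctsl, 12.8% of Ctsb and 9.31% of Lamp1. Lamp2 ranged from 80.0 to 86.8 CPM and Ctsl from 61.9 to 77.8 CPM. For DR against AL the 5 log2 fold changes lay between -0.07 and 0.05, and the lowest adjusted p was 0.484.

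**Figure D2:**
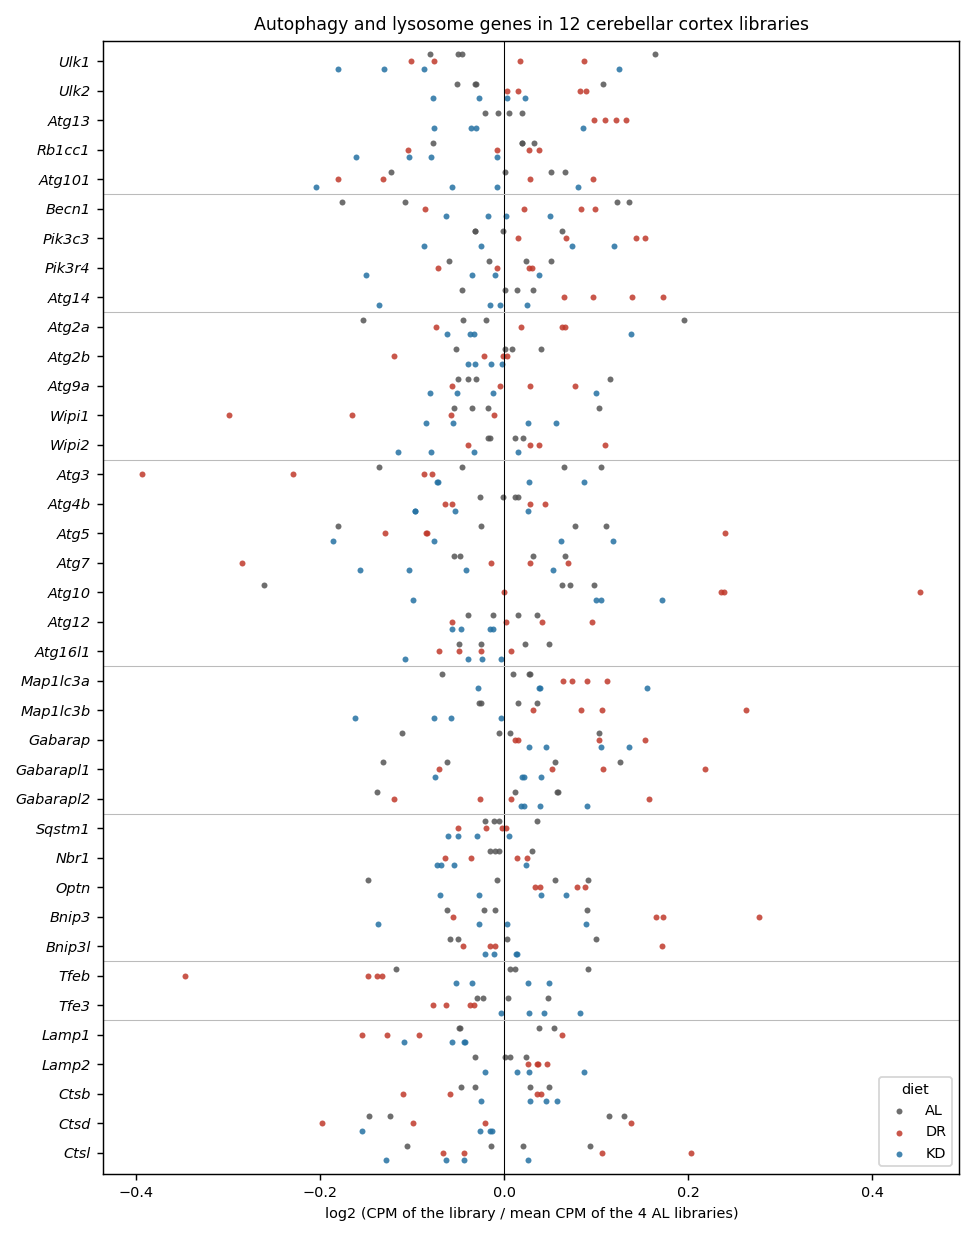
Each of the 38 genes in each of the 12 libraries, as log2 of the CPM of the library over the mean CPM of the 4 AL libraries, with 1 point per library and grey lines between roles. The 4 DR points of Atg13 and Atg14 lie to the right of the AL points and those of Tfeb to the left, while most genes have the 3 diets interleaved.

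Across the list the fitted differences for DR against AL ran from -0.19 (Atg3) to 0.24 (Atg10) on the log2 scale. Their median was 0.01, against 0.0036 for all genes. Of the 38 differences 20 lay above 0 and 18 below, and for all genes 51.0% lay above 0. With library sizes alone in place of TMM the split was 27 to 11, and the median of all genes 0.02. The median size of the difference without its sign was 0.04, against 0.10 for all genes tested and 0.07 for genes of at least 10 CPM. The 95% interval lay within 0.25 of 0 on the log2 scale for 33 of the 38 genes. An unadjusted p under 0.05 was seen in 6 genes (15.8%), against 18.0% of all genes: Atg13, Atg14, Bnip3 and Map1lc3b, higher on DR, and Atg3 and Tfeb, lower on DR. The libraries of DR and AL did not overlap for 5 genes, 3 higher on DR (Atg13, Atg14 and Map1lc3a) and 2 lower (Tfeb and Tfe3), against 10.9% of all genes. The lowest adjusted p was 0.121 (Atg13), and DESeq2, which called 0 of the 38, had 6 of them at an unadjusted p under 0.05, against 16.8% of all genes.

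For KD against AL the log2 fold changes ran from -0.08 to 0.08, with a median of -0.01 against 0.00021 for all genes. Of the 38 fold changes 12 lay above 0 and 26 below, and for all genes 50.1% lay above 0. For 37 of the 38 genes, all but Atg10 (-0.16 to 0.31), the 95% interval lay within 0.25 of 0. No gene of the 38 had an unadjusted p under 0.05 or libraries that did not overlap, against 4.87% and 2.95% of all genes. All adjusted p were at least 0.994, and DESeq2 called 0 of the 38 and 10 of all genes, with 0 of the 38 and 3.82% of all genes at an unadjusted p under 0.05.

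The KD against DR differences ran from -0.20 (Map1lc3b) to 0.19 (Atg3 and Tfeb), with a median of -0.03 against -0.0024 for all genes. Of the 38 differences 9 lay above 0 and 29 below, and for all genes 49.2% lay above 0. The split was 6 to 32 with library sizes alone and 10 to 28 with RLE scaling. Apart from the called Map1lc3b, 5 genes had an unadjusted p under 0.05, so that 6 of 38 did (15.8%) against 18.7% of all genes. They were Atg13, Atg14 and Bnip3, lower on KD, and Atg3 and Tfeb, higher on KD. The libraries did not overlap for 6 genes, 3 higher on KD (Atg3, Tfeb and Tfe3) and 3 lower (Atg13, Atg14 and Map1lc3b), against 11.8% of all genes. DESeq2 called Map1lc3b alone of the 38, against 7.01% of all genes, and had 6 of the 38 at an unadjusted p under 0.05, against 17.7% of all genes. The interval lay within 0.25 of 0 for 31 of the 38. This comparison and that of DR against AL use the same 4 DR libraries. In the 5 genes whose window holds the CLEAR core the differences were -0.15 for Atg14, 0.19 for Atg3, -0.02 for Atg7, -0.01 for Ctsd and 0.01 for Lamp1.

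**Figure D3:**
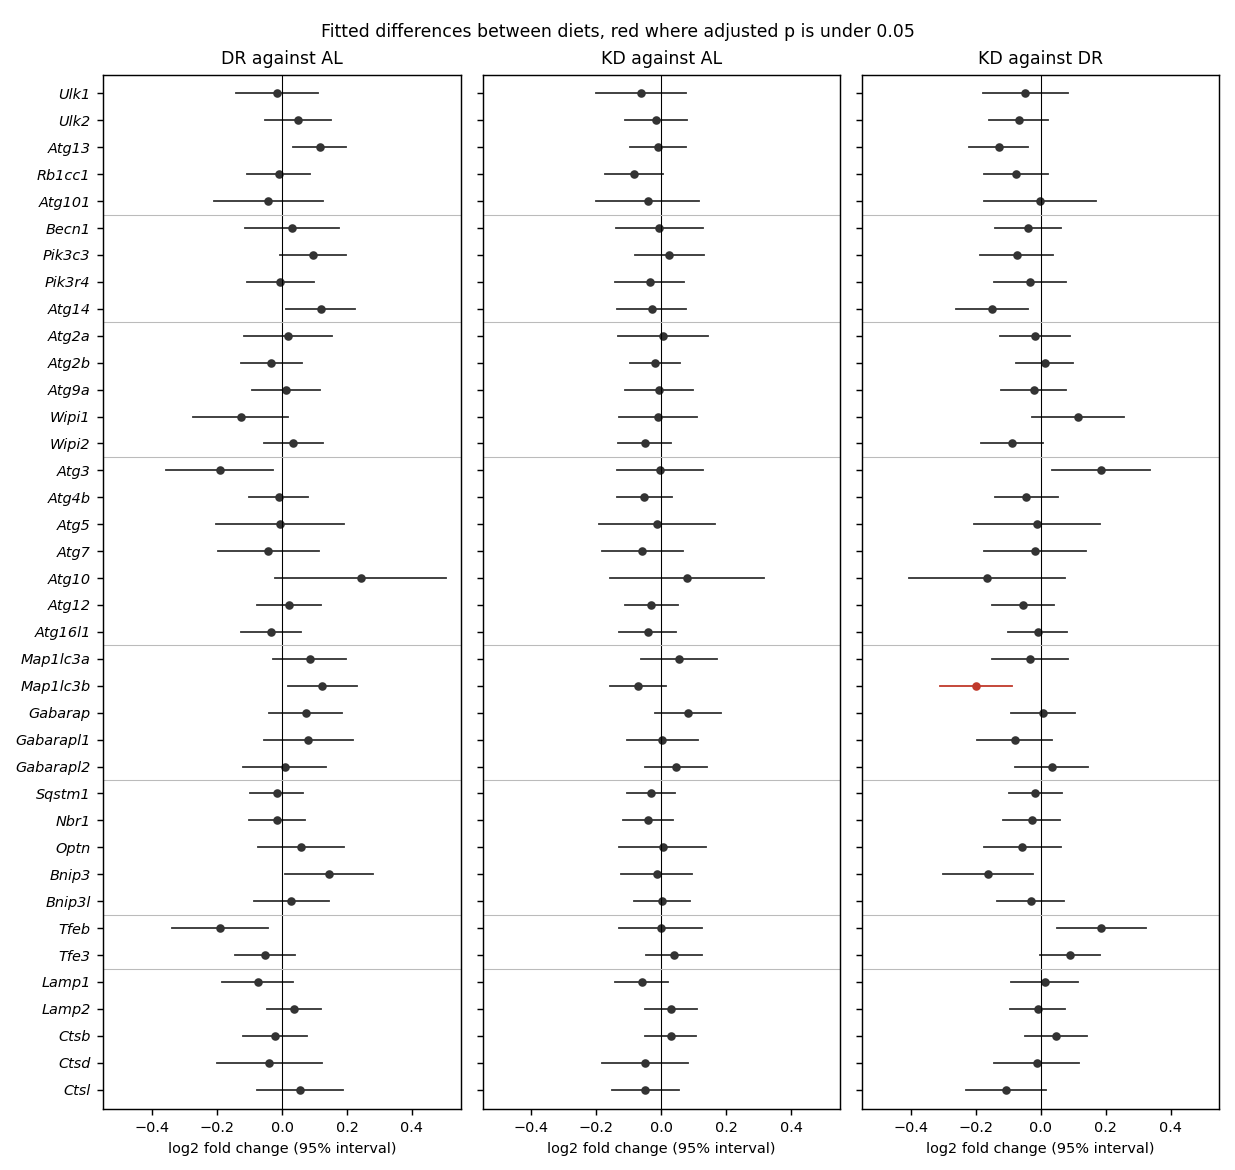
Fitted log2 fold change of each of the 38 genes with its 95% interval in the 3 comparisons of diets, 4 libraries against 4 in each. Map1lc3b in KD against DR, at -0.20, is the single gene in red for an adjusted p under 0.05, and most intervals include 0.

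**Figure D4:**
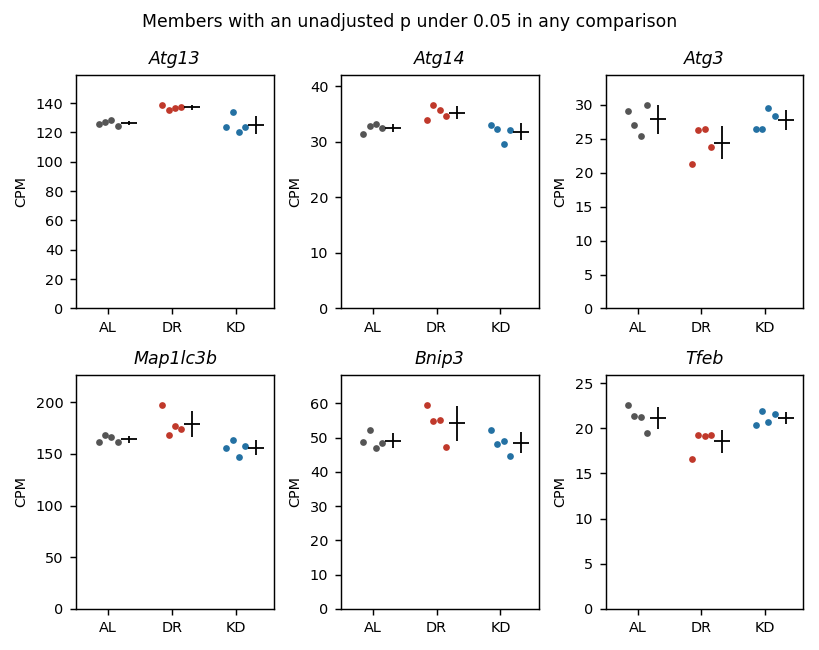
CPM of the 6 genes with an unadjusted p under 0.05 in any comparison, with 1 point per library and the mean and SD of 4 libraries beside the points on an axis from 0. The DR mean is the highest of the 3 in Atg13, Atg14, Map1lc3b and Bnip3 and the lowest in Atg3 and Tfeb, and the points of the diets lie close together on this scale.

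Some markers of cell types were lower on DR. The 6 Purkinje cell genes summed to 6677 to 7142 CPM on AL, 5612 to 6474 CPM on DR and 6584 to 6767 CPM on KD. Most of this sum came from Itpr1 (mean 4394 CPM on AL). Among the 6, Car8 was lower in DR against AL (-0.25, adjusted p = 0.0327). The Car8 call was lost without AL replicates 1, 2 and 4 or DR replicates 2 and 3 (adjusted p from 0.0668 to 0.108). The 6 astrocyte and Bergmann glia genes summed to 1805 to 1948, 1605 to 1665 and 1766 to 1829 CPM in the same order. Most of this sum came from Slc1a3 (mean 1324 CPM on AL). Of these genes Aqp4 (-0.52, adjusted p = 0.000706) and Hopx (-0.47, adjusted p = 0.00143) were lower on DR. The 6 oligodendrocyte genes summed to 2256 to 2868, 2108 to 2618 and 2485 to 2694 CPM. The 9 microglia genes summed to 67.9 to 70.8, 62.6 to 66.8 and 65.8 to 76.4 CPM. In DR against AL, KD against AL and KD against DR 0 of the 9 passed, against 3.06%, 0% and 4.94% of all genes. Cirbp, induced by cold, was higher on DR (0.57, adjusted p = 0.00198). Rbm3, the other cold-inducible gene listed, was not called in DR against AL (0.07, adjusted p = 0.538) or in KD against DR. In KD against DR, Car8 (0.24, adjusted p = 0.0164), Aqp4 (0.45, 0.00131) and Hopx (0.30, 0.00316) were higher on KD and Cirbp (-0.45, 0.000578) was lower. That Car8 call was lost without DR replicate 3 or KD replicate 3 (adjusted p from 0.0509 to 0.0571). In KD against DR, where 4.94% of all genes were called, the 5 granule cell genes held 1 called higher and 1 called lower on KD. These were Fat2 (0.20, adjusted p = 0.0257) and Cbln3 (-0.21, 0.0145). The Fat2 call was lost without DR replicates 2 and 3 or KD replicates 3 and 4 (adjusted p from 0.0552 to 0.0991), and that of Cbln3 without DR replicate 3 or KD replicates 1 and 3 (adjusted p from 0.0541 to 0.0656). The 3 choroid plexus genes summed to 1.06 to 2.09, 1.34 to 1.73 and 0.942 to 9.46 CPM. Among them Ttr stood at 7.95, 0.371, 2.13 and 3.19 CPM on KD and 0.655 to 0.817 CPM on DR, and it was called higher in KD against DR (2.16, adjusted p = 0.0332), a call kept without KD replicate 2, lost without any other single library (adjusted p from 0.051 to 0.134) and not made by DESeq2 (0.061). The 4 erythroid genes summed to 249 to 383 CPM on AL, 160.5 to 455.5 CPM on DR and 215 to 244 CPM on KD. All 4 had an unadjusted p under 0.05 in KD against AL (4.87% of all genes), lower on KD with a median log2 fold change of -0.46. After adjustment 0 of the 4 passed, as did 0% of all genes. No marker was at 0 in all libraries. In bulk tissue fewer cells of a type and less RNA per cell cannot be told apart, and the part of these marker levels in the values of Tfeb, Atg3, Atg13, Atg14, Bnip3 and Map1lc3b was not tested.

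Further genes of the pathway were taken from 4 lists, also chosen with earlier results of these data known. Of 35 other core autophagy genes 0 were called in DR against AL (3.06% of all genes) and KD against AL (0%), and 2 in KD against DR (4.94%), both lower on KD. Wdr45 stood at 26.8, 26.5, 28.5 and 25.8 CPM on AL, 31.9, 26.9, 30.8 and 29.1 CPM on DR and 23.2, 24.7, 21.9 and 21.8 CPM on KD. Wdr45, which encodes the WIPI protein WIPI4 that binds ATG2, was lower on KD than in any AL or DR library, and its log2 fold change against DR was -0.38 ± 0.07 (SE, as are the values after ± for the genes that follow, adjusted p = 0.00341), called in all 8 fits that left out 1 library. Against AL it was -0.23 (adjusted p = 0.694). Of the exon bases of Wdr45 24.7% are shared with Gm45208. Calcoco1 stood at 106, 107, 122 and 108 CPM on AL, 122, 122, 143 and 119 CPM on DR and 98.5, 119, 101 and 96.0 CPM on KD. The KD libraries of Calcoco1, a receptor for autophagy of the endoplasmic reticulum, lay below the DR libraries (-0.29 ± 0.07, adjusted p = 0.0221), with KD replicate 2 within 1 CPM of the lowest DR library, and the call was lost without DR replicate 3 or KD replicates 1, 3 and 4 (adjusted p from 0.0698 to 0.0807).

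Of 46 lysosomal hydrolases and membrane proteins 1 was called in DR against AL (3.06% of all genes) and 0 in KD against AL and KD against DR. Idua stood at 23.1, 23.0, 25.4 and 23.2 CPM on AL, 29.7, 27.5, 29.1 and 27.2 CPM on DR and 21.7, 26.6, 23.1 and 25.0 CPM on KD. Idua, the lysosomal alpha-L-iduronidase that degrades glycosaminoglycans, was higher in all 4 DR libraries than in any AL or KD library, with 0.26 ± 0.06 for DR against AL (adjusted p = 0.0257), and the call was lost without AL replicates 1, 2 and 4 or DR replicates 1 and 3 (adjusted p from 0.0655 to 0.0815). Of 18 subunits of the vacuolar ATPase, the proton pump of the lysosome, 1 was called, in KD against DR (4.94% of all genes). Atp6v0e stood at 35.5, 39.6, 42.1 and 39.1 CPM on AL, 44.2, 46.6, 46.6 and 42.1 CPM on DR and 41.7, 40.0, 35.0 and 35.8 CPM on KD. Atp6v0e, a small subunit of its membrane sector, was lower in all KD than in all DR libraries (-0.23 ± 0.06, adjusted p = 0.0349), and the call was lost without DR replicates 1, 2 and 3 or KD replicates 3 and 4 (adjusted p from 0.0543 to 0.123).

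Of 35 regulators of nutrient sensing 0 were called in DR against AL or KD against AL, while in KD against DR, where 4.94% of all genes were called, 5 were lower and 1 higher on KD. Foxo1 stood at 20.3, 26.0, 27.1 and 18.9 CPM on AL, 28.4, 26.3, 31.9 and 27.9 CPM on DR and 20.8, 16.3, 16.3 and 20.6 CPM on KD. The KD libraries of Foxo1, a transcription factor that insulin signalling keeps out of the nucleus, lay below all DR libraries, and its log2 fold change was -0.63 ± 0.09 (adjusted p = 0.000611). Ddit4 stood at 58.9, 94.3, 69.1 and 55.7 CPM on AL, 68.1, 84.7, 86.7 and 84.8 CPM on DR and 61.6, 63.8, 57.3 and 59.1 CPM on KD. Ddit4, whose product REDD1 inhibits mTORC1, was lower on KD, with a log2 fold change of -0.42 ± 0.07 (adjusted p = 0.0016), while its AL libraries spanned both diets. Foxo1 and Ddit4 were called in all 8 fits without 1 library. Foxo3 stood at 226, 271, 280.3 and 218 CPM on AL, 261, 280.1, 280.4 and 282 CPM on DR and 246, 248, 226 and 246 CPM on KD. Foxo3, the related factor, was lower on KD (-0.19 ± 0.04, adjusted p = 0.0198). That call was lost without DR replicate 3 or KD replicate 3 (adjusted p from 0.061 to 0.0782). Sesn1 stood at 86.2, 90.5, 81.0 and 75.6 CPM on AL, 91.9, 88.0, 87.6 and 83.1 CPM on DR and 76.6, 77.4, 76.6 and 80.3 CPM on KD. Sesn1, a sestrin that restrains mTORC1 when leucine is short, was lower on KD (-0.17 ± 0.04, adjusted p = 0.0292), a call lost without DR replicates 1, 2 and 3 or KD replicates 1, 2 and 3 (adjusted p from 0.051 to 0.0964).

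Nprl3 stood at 22.6, 24.4, 25.1 and 22.6 CPM on AL, 26.8, 28.5, 27.6 and 26.0 CPM on DR and 24.8, 23.4, 20.4 and 23.3 CPM on KD. Nprl3, a subunit of GATOR1, which acts against mTORC1 at the lysosome, was lower on KD (-0.24 ± 0.06, adjusted p = 0.0389). Of its exon bases 17.7% are shared with Mpg on the opposite strand, and the call was lost without DR replicates 1, 2 and 3 or KD replicates 2, 3 and 4 (adjusted p from 0.0596 to 0.12). Rragd stood at 112, 109, 114 and 118 CPM on AL, 106, 105, 105 and 104 CPM on DR and 119, 112, 119.5 and 115 CPM on KD. Rragd, a Rag GTPase that carries amino acid signals to mTORC1, was higher on KD (0.15 ± 0.04, adjusted p = 0.0438), a call lost without DR replicates 2, 3 and 4 or KD replicates 1, 3 and 4 (adjusted p from 0.0765 to 0.139). In this gene the 4 DR libraries lay between 104 and 106 CPM, below every AL and KD library. The called genes sat among many that did not pass, and the median log2 fold changes of the 4 lists in KD against DR were -0.04 for other core autophagy genes, -0.02 for hydrolases and membrane proteins, 0.01 for vacuolar ATPase subunits and -0.02 for nutrient sensing regulators, against -0.0024 for all genes.

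**Figure D5:**
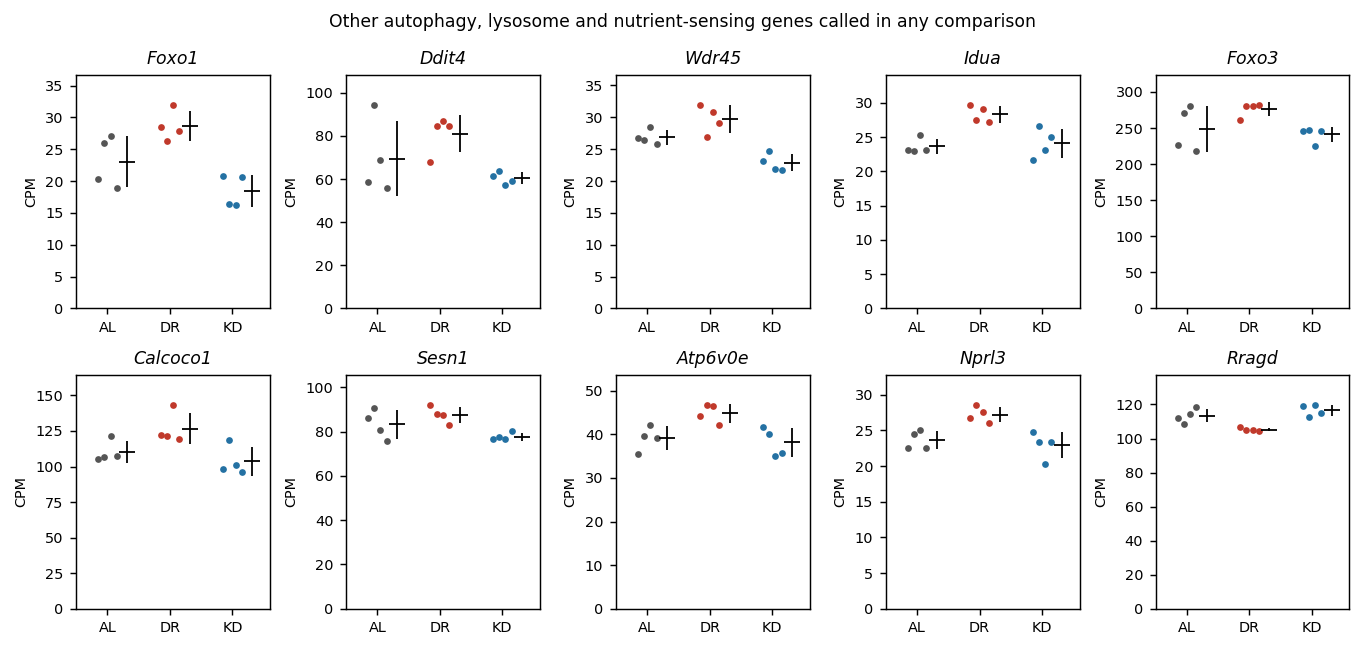
CPM of the 10 genes called in any comparison among the other autophagy, lysosome and nutrient-sensing genes, with 1 point per library and the mean and SD of 4 libraries on axes from 0. The KD points lie below the DR points in every gene but Rragd, where they lie above, and Idua is the gene called for DR against AL.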

How the data were processed

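Poly(A) RNA was sequenced from 12 mice, 4 per diet, with a library kit that does not keep strand. Per the paper and labels, the authors trimmed reads with Trimmomatic 0.39, aligned them with STAR 2.7.0f to GRCm38.p6 and deposited raw counts per gene from featureCounts (Subread 1.6.4). The counting strand is not given in the sources used here, so genes that share exons are uncertain.

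Diets were compared 2 at a time, on the 8 libraries concerned, with edgeR 4.0.16 in R 4.3.3 (filterByExpr with minimum count 10 and minimum total 15, TMM scaling, quasi-likelihood test, Benjamini-Hochberg adjustment, threshold 0.05). CPM used TMM-scaled totals over all 12 libraries. RPKM is CPM per kilobase of merged exon. Symbols matched 54723 of 54752 genes, from a GENCODE annotation one release later. All 18 pairs of libraries within a diet differed beyond sampling noise (chi-square per gene 4.95 to 11.6). The procedure was tested on simulated counts. Replicate numbers follow the order of deposit and only name libraries. Alternatives were library size alone, RLE, DESeq2 1.42.0, no filter, 1 fit over 12 libraries and leaving out each library.

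Genes shown by library were those called in any comparison and the 3 per role with the highest RPKM, and the called genes of 4 other lists. The members and lists were chosen with earlier results of these data known. Backgrounds for genes of at least 10 CPM were added after values were seen. Results of some marker genes are not reported here. Intervals are 95% intervals of the fit, and each p weighs a difference between diets against the spread between mice.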

Additional observations from a re-analysis of the deposited data

Results flagged for a closer look

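In 114 sets of 4 libraries, 38 genes on 3 diets, the highest or lowest library was sought whose gap to its neighbour took most of the range of the set (Dixon's criterion), which chance gives in about 1 of 20 sets, and 10 were found. All genes were read from the same libraries, so the sets are not independent and the 10 cannot be weighed against that rate. AL replicate 3 was high in Ulk1 (192.7 CPM, the others 162.7 to 166.6), Ulk2 (73.72 CPM, the others 66.04 to 66.96) and Atg9a (104.9 CPM, the others 93.56 to 94.87). AL replicate 1 was low in Rb1cc1 (100.5 CPM, the others 107.4 to 108.4) and Atg10 (3.648 CPM, the others 4.568 to 4.677). DR replicate 1 was high in Atg5 (16.52 CPM, the others 12.79 to 13.2) and Bnip3l (115.2 CPM, the others 99.19 to 101.6) and low in Tfeb (16.65 CPM, the others 19.1 to 19.31). KD replicate 2 was high in Atg2a (104.8 CPM, the others 91.23 to 93.11), and KD replicate 3 was low in Ctsd (90.35 CPM, the others 98.8 to 99.7).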

How the results depend on the processing

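No paired analysis was possible because the labels give the libraries no replicate numbers that diets share. The count of autophagy and lysosome genes called stayed at 0 for DR against AL and KD against AL under every alternative run, and at 1, Map1lc3b, for KD against DR under those that kept all libraries. Leaving out 1 library gave 0 to 2 for KD against DR: Map1lc3b and Atg13 (-0.16, adjusted p = 0.0451) without KD replicate 2, Bnip3 alone without DR replicate 4, Map1lc3b alone without DR replicate 2, and 0 in the other 5. Of 1482 refits of single genes of the list, 8 crossed the threshold. Over all genes, DR against AL gave 583 calls, 1012 with DESeq2, 1258 without the filter and 235 (without DR replicate 3) to 712 (without AL replicate 3) with 1 library left out. It gave 264, 276 and 244 without AL replicates 1, 2 and 4, and 353 without DR replicate 1. KD against AL gave 0, 10, 118 and 0 to 6 (without AL replicate 1) in the same order, with 2 and 5 without AL replicates 3 and 4, and 928 genes at an unadjusted p under 0.05. KD against DR gave 942 calls, 1338 with DESeq2, 1503 without the filter and 467 (without KD replicate 3) to 946 (without DR replicate 4), with 520, 526 and 601 without DR replicate 3, KD replicate 1 and KD replicate 4. The share of calls that were higher on DR went from 43.2% to 57.0% with library sizes alone, and the share higher on KD against DR from 49.2% to 37.9%. The median log2 fold change of the list ranged from -0.0034 (without AL replicate 4) to 0.024 for DR against AL, from -0.029 to -0.0022 for KD against AL and from -0.049 to -0.018 for KD against DR with 1 library left out. Among the other genes, Foxo3 (adjusted p = 0.103) and Sesn1 (0.0553) did not pass in 1 fit over 12 libraries, nor Rragd with library sizes alone (0.0836) or without the filter (0.074). Fits without 1 library hold fewer libraries and those without the filter test more genes, and the cause of these changes was not tested. The intervals are per gene, from 4 mice per diet, and are not adjusted over genes or comparisons. Proteins were not measured.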
